A study of Mus musculus with 6 samples.

Results

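The 8 genes described here encode the integrin chains that are typical of leukocytes: the α chains Itgal, Itgam, Itgax and Itgad with their common partner Itgb2, the α chain Itga4, and the β chain Itgb7 with its α partner Itgae. They were taken by gene name from a count table of 57010 genes, and all 8 were among the 18114 genes that passed the filter on low counts. RNA was sequenced in 6 libraries of monocytes from the bone marrow of male and female C57BL/6 mice (C57BL/6J in the methods) at an age of 1 year, 3 from the femur (S13, S15 and S18) and 3 from the mandible (S16, S19 and S23). No treatment or genetic change was applied, and the question was whether monocytes, the precursors of osteoclasts, differ between the skeletal sites. The cells were the flow through of a magnetic column after antibodies had bound other marrow cells, so no positive marker selected them. Which animals, of which sex and whether pooled, each library came from is not named in the sources used here, so the p-values measure the spread between these libraries.

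Integrins are pairs of an α and a β chain that cross the membrane, bind ligands on other cells or in the matrix, and connect to actin inside the cell. The β2 pairs are αLβ2 (LFA-1, which binds the ICAMs), αMβ2 (Mac-1, which binds ICAM-1, fibrinogen and complement fragment iC3b), αXβ2 (CD11c) and αDβ2 (CD11d), and they serve firm adhesion and phagocytosis. The α4 chain pairs with β1 to bind VCAM-1 and fibronectin and with β7 to bind MAdCAM-1, while αEβ7 (CD103) binds E-cadherin and marks a subset of dendritic cells and T cells in epithelia.

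The libraries held 15718782 to 25371474 counts on genes. Expression is given as CPM, counts per 1000000 counts of the library after TMM scaling. Where no read was counted, up to 3 counts remain possible by counting error alone, or 0.118 to 0.191 CPM before scaling. Summed over a list of 12 monocyte markers, all detected (Ccr2, Csf1r and Lyz2 among them), expression was 8763 to 15210 CPM in femur and 7350 to 12810 CPM in mandible libraries. Markers of other cells were also present. All 16 neutrophil markers were detected, with sums of 34840 (S13), 4215 (S15), 25110 (S18), 7803 (S16), 11430 (S19) and 4448 CPM (S23). The sum of 14 mesenchymal and osteoblast markers was 346.8 to 440.6 CPM in femur and 8851 to 15380 CPM in mandible libraries, and that of 10 dental epithelium markers 8.938 to 12.02 and 5781 to 11330 CPM. S23 had 25189 counts of Xist and none of 4 genes of the Y chromosome (Uty, Kdm5d, Eif2s3y and Ddx3y), where the other 5 libraries had at most 12 counts of Xist and at least 2772 of the Y-linked genes. By these counts S23 had the pattern of female cells and the other 5 libraries that of male cells. The femur group thus held no library of the female pattern, and sex was not balanced between the sites. The part of sex in the differences between sites was not tested.

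On GRCm38, Itgal (ENSMUSG00000030830, chromosome 7, 127296260 to 127335138), Itgam (ENSMUSG00000030786, 128062640 to 128118491), Itgax (ENSMUSG00000030789, 128129547 to 128150657) and Itgad (ENSMUSG00000070369, 128154376 to 128223816) lie on the plus strand of 1 chromosome. The gap is 11055 bases between Itgam and Itgax and 3718 bases between Itgax and Itgad, and Itgal is 727501 bases from Itgam. Itgb2 (ENSMUSG00000000290) lies on chromosome 10 from 77530252 to 77565708, Itga4 (ENSMUSG00000027009) on chromosome 2 from 79255426 to 79333123, Itgae (ENSMUSG00000005947) on chromosome 11 from 73090583 to 73147446, and Itgb7 (ENSMUSG00000001281) on the minus strand of chromosome 15 from 102215995 to 102231944. RefSeq promoter sequences (GRCm38.p6) were found for 4 of the 8 genes, Itga4, Itgam, Itgax and Itgb7. Those of Itgam and Itgax are shown because these neighbors share the partner Itgb2 but Itgam had far more counts. Capitals mark GAGGAA or its reverse complement TTCCTC, the core bound by the myeloid factor PU.1, in windows of 300 bases around the start, chr7:128062390-128062689 and chr7:128129300-128129599, both on the plus strand.
Itgam: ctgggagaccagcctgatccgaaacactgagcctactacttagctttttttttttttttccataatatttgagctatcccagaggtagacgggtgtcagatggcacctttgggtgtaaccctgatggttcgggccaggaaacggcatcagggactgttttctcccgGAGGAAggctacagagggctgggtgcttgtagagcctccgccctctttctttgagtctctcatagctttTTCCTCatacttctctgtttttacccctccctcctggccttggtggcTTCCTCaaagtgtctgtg
Itgax: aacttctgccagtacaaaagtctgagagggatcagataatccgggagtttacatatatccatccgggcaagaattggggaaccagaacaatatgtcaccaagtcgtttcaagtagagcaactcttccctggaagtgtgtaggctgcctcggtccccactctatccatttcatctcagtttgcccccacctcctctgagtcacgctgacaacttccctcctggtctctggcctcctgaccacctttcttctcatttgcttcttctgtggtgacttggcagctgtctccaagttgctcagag
The Itgam window held 3 matches, Itgax and Itga4 held 0 and Itgb7 held 1, where 28.3% of 32851 promoters of the same length held at least 1. Of 2 other motifs searched on both strands, the RUNX core TGTGGT had 1 match each in Itgax and Itga4. It had 0 in Itgam and Itgb7, where 16.8% of promoters held at least 1. The TATA box TATAAA had 0 in all 4, where 13.6% of promoters held it. The part of any motif in the levels was not tested. A match is a description of the letters and not of a bound site.

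None of the 8 genes passed the test for a difference between mandibular- and femur-derived monocytes. The quasi-likelihood test of edgeR was used with the Benjamini-Hochberg adjustment, and a gene was called at an adjusted p below 0.05 and at least a 2-fold change. This called 938 genes, 5.18% of all (3.88% higher and 1.3% lower in the mandible), and 0 of the 8. No member had an unadjusted p under 0.05, which 16.4% of all genes had. DESeq2 and limma-voom also called 0 of the 8. Over the 18114 genes, DESeq2 called 1099 higher and 448 lower, and limma-voom 507 and 246. An unadjusted p under 0.05 was found for 2 members by DESeq2 and 0 by limma-voom. The share of all genes with such a p is given here for edgeR only, so these 2 have no background of their own tool. The log2 fold change was above 0 in 7 members, with a median of 0.37 against -0.038 over all genes, of which 47.8% lay above 0. This direction depended on the treatment of gene length. With each library's trend of expression on gene length removed, 4 of the 8 lay above 0 and the median was 0.068 against -0.18 over all genes.

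**Figure D1:**
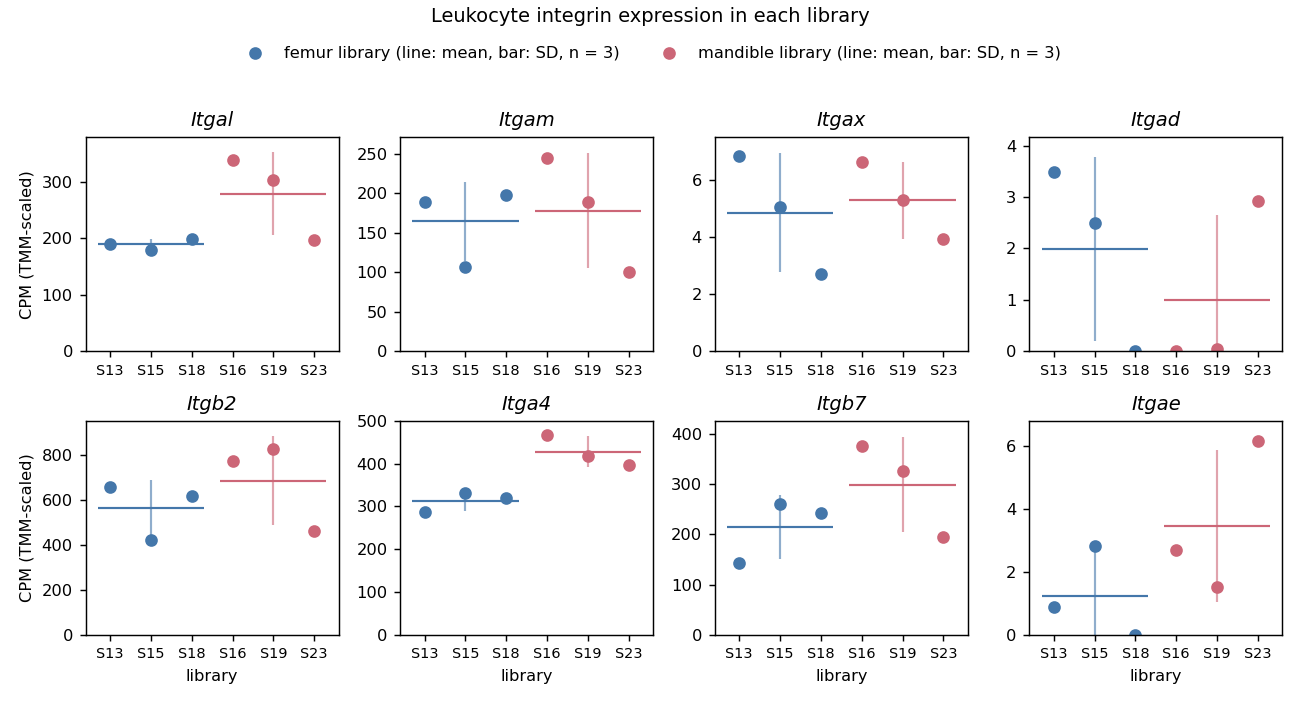
Expression of each leukocyte integrin gene in TMM-scaled CPM (vertical axis from 0, own scale in each panel) in the 3 femur and 3 mandible libraries (horizontal axis). Points are libraries, horizontal lines are group means and vertical bars are the SD, cut at 0. Only for Itga4 do all mandible libraries lie above all femur libraries, and Itgad lies near 0 in S18, S16 and S19.

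Itgb2, the β chain that αL, αM, αX and αD all need to reach the cell surface, was the most abundant member. Its expression was 656.7, 420.8 and 617.6 CPM in femur S13, S15 and S18, and 772.6, 827.4 and 460.8 CPM in mandible S16, S19 and S23. S15 and S23 were the lowest library of their group, and the groups overlapped. The log2 fold change was 0.28 (standard error, SE, 0.33, adjusted p = 0.78, edgeR), and its 95% interval ran from 0.732-fold to 2.02-fold. Relative to Ptprc, the gene of the pan-leukocyte antigen CD45, the level of Itgb2 per length differed between groups by -0.020 on the log2 scale (exact two-sided permutation test, p = 1, adjusted p = 1 over 8 ratios). Between 2 such groups of 3, the smallest p of this test is 0.1.

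Itgal, the α chain of LFA-1, was measured at 189.6, 179.7 and 198.1 CPM in the femur (S13, S15, S18) and at 338.2, 302.7 and 197.4 CPM in the mandible (S16, S19, S23). S16 and S19 lay above every femur library and S23 among them. Its log2 fold change, 0.56 (SE 0.28, edgeR adjusted p = 0.36; interval 0.964-fold to 2.26-fold) had the smallest unadjusted p of the 8, 0.069. It ran from 0.20 with the length trend removed to 0.71 without S23.

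Itgam, the α chain of Mac-1 and a common marker of monocytes and neutrophils (CD11b), was measured at 188.9, 107.0 and 197.6 CPM in femur and at 244.1, 189.2 and 100.1 CPM in mandible libraries. The lowest values were again those of S15 and S23, S16 was the highest of all, and the groups overlapped. Between the groups its log2 fold change was 0.11 (SE 0.36, adjusted p = 0.94, edgeR), with an interval from 0.624-fold to 1.87-fold. S15 and S23 also had the lowest sums of the neutrophil markers, whose part in the result was not tested. In bulk samples, fewer cells of a type and less RNA per cell cannot be told apart.

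Most exonic bases of Itgam are also annotated to another gene. The annotated gene Gm49368 runs on the same strand from near the start of Itgam past its end and shares 3450 of its exonic bases, 68.7% of them, and 72.4% of all runs of 50 bases (the read length) in the longest coding transcript of Itgam also occur in Gm49368. Gm49368 had 3, 3 and 0 counts in the femur and 0 in every mandible library, where Itgam had 1750 to 4878 counts, so reads on the shared exons were not counted to both genes. How the counting treated reads that fit both genes is not given in the sources used here. If they were left out, the 1574 bases outside Gm49368 carried all counts of Itgam. This bears on the level of Itgam against other genes.

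Itgax (CD11c), high on dendritic cells and on some macrophages and monocytes, was low in every library, with 6.849, 5.068 and 2.695 CPM in femur and 6.655, 5.317 and 3.947 CPM in mandible libraries. The counts were 61 to 133 per library. Mandible over femur, the log2 fold change was 0.12 (SE 0.62, adjusted p = 0.96, edgeR), with an interval from 0.424-fold to 2.8-fold, and its sign changed without S18 or S16. In its longest coding transcript 9.61% of runs of 50 bases also occur in Itgad, so a few reads could belong to either gene.

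Itgad, the α chain CD11d of tissue macrophages, was present or nearly absent by library rather than by site. The counts were 63 and 54 in femur S13 and S15 and 51 in mandible S23, against 0 in femur S18, 0 in mandible S16 and 1 in mandible S19. Its log2 fold change, -1.01 (SE 1.96, edgeR adjusted p = 0.89), had an interval from 0.025-fold to 9.87-fold, and without S23, when the mandible libraries held 0 and 1 counts, the value was -6.09 and its size depends on the prior count. Cox6a2, a cytochrome oxidase subunit of muscle, overlaps 70 exonic bases of Itgad on the other strand. It had 0, 2 and 4 counts in femur S13, S15 and S18 and 114, 72 and 213 in mandible S16, S19 and S23. In the longest coding transcript of Itgad, 22% of runs of 50 bases also occur in other genes, Itgax and Cox6a2 among them.

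Itga4, the α chain of VLA-4 and of α4β7, was the 1 member whose groups did not overlap. It was measured at 287.8, 332.4 and 318.9 CPM in femur and at 467.8, 418.1 and 397.1 CPM in mandible libraries. Groups were apart in 24.2% of all genes, 12.7% with the mandible higher, so 1 in 8 members is near the background. Its log2 fold change was 0.45 (SE 0.26, adjusted p = 0.46, edgeR; interval 0.919-fold to 2.03-fold; exact two-sided permutation test, p = 0.1). It stayed between 0.39 and 0.47 when any 1 library was left out but was -0.24 with the length trend removed. Itga4 is the longest member, with 13978 exonic bases. Cerkl overlaps 8.04% of them on the other strand and had 6 to 241 counts.

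Itgb7 was measured at 142.3, 259.8 and 243.2 CPM in femur and at 376.8, 327.4 and 194.2 CPM in mandible libraries. S13 was the lowest of all libraries, S16 and S19 lay above every femur library, and S23 lay within the femur range. For this gene the log2 fold change was 0.48 (SE 0.34, adjusted p = 0.58, edgeR), with an interval from 0.833-fold to 2.33-fold.

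Its partner Itgae had 16, 61 and 0 counts in the femur (0.8838, 2.81 and 0 CPM) and 54, 32 and 108 counts in the mandible (2.702, 1.519 and 6.177 CPM). The highest library was S23 and the lowest S18. Its log2 fold change was 1.49 (SE 1.37, adjusted p = 0.70, edgeR), and the interval from 0.345-fold to 22.7-fold leaves the direction unresolved at this depth. It was 0.72 without S23 and 2.93 without S15. In S23 the sum of 12 T and NK cell markers was 172.8 CPM. It was 169.2 CPM in femur S13, where Itgae had 16 counts, and 54.55 to 114.6 CPM in the remaining libraries. The sum of 13 dendritic cell markers was 167.6 to 299.5 CPM in femur and 306.0 to 380.2 CPM in mandible libraries. Without Tcf4 the groups overlapped, with sums of 255.5, 124.0 and 261.6 CPM (S13, S15, S18) and 309.5, 296.2 and 214.9 CPM (S16, S19, S23). Clec9a, a marker of the dendritic cells that carry CD103, was at 6.794, 6.727 and 3.048 CPM in femur and 2.552, 1.614 and 2.86 CPM in mandible libraries. Its groups did not overlap, as in 11.5% of all genes with the mandible lower. It was not called (log2 fold change -1.24, adjusted p = 0.45, edgeR). Of the 12 tested dendritic cell markers, 10 had a log2 fold change above 0, Batf3 (0.33, adjusted p = 0.92, edgeR) among them. The part of these cells in the values of Itgae was not tested.

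**Figure D2:**
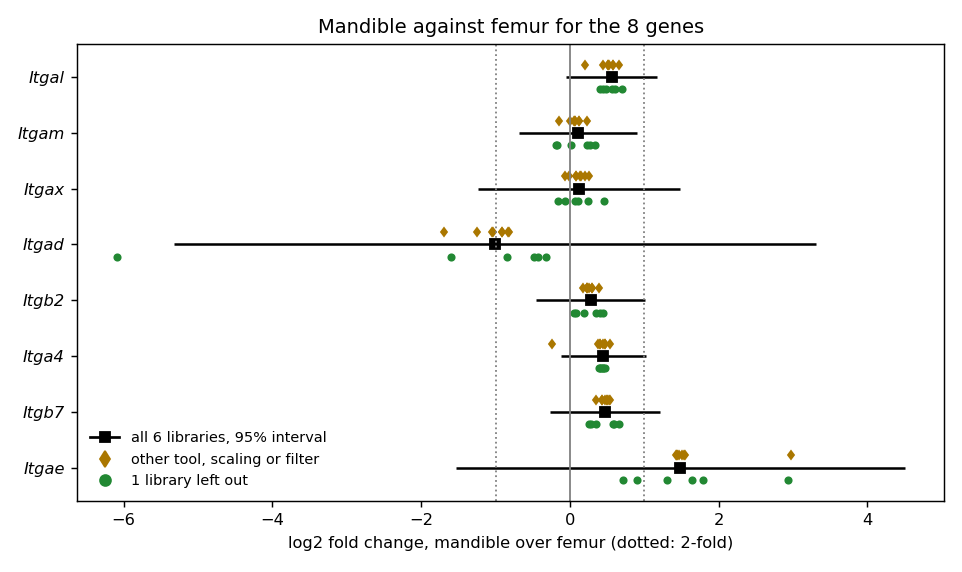
Log2 fold change of each gene, mandible over femur (horizontal axis), from all 6 libraries (square, line for the 95% interval), under another tool, scaling, filter or length correction (diamonds) and with 1 library left out (circles). The intervals of all 8 genes include 0, and that of Itgam spans -0.681 to 0.906 where those of Itgad and Itgae span many fold.

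Levels of different genes were compared as CPM per kilobase of exons. Itgb2 was the highest at 205 ± 53.3 (SD over 6 libraries), followed by Itgb7 at 92.9 ± 30.9, and Itgb2 exceeded Itgb7 in 6 of 6 libraries without overlap of their ranges. Itgal (35.7 ± 10.3), Itgam (34.1 ± 11.2) and Itga4 (26.5 ± 4.89) came next, and their ranges overlapped. Itgal exceeded Itgam in 4 of 6 libraries and Itgam exceeded Itga4 in 4 of 6, so the neighbors in this order did not differ beyond their spread. A step of 25-fold separated Itga4 from Itgax at 1.06 ± 0.331. Itgae (0.513 ± 0.472) and Itgad (0.33 ± 0.365) were lowest, with overlapping ranges. The order by group means differed between femur and mandible for 2 pairs of neighbors, within their spread. Itgal and Itgam were at 28.8 ± 1.4 and 32.7 ± 9.94 per kilobase in the femur, 42.5 ± 11.1 and 35.4 ± 14.5 in the mandible (SD, n = 3). Itgae and Itgad were at 0.269 ± 0.314 and 0.441 ± 0.397 in the femur, 0.757 ± 0.529 and 0.219 ± 0.37 in the mandible.

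If Itgam is divided by the 1574 bases outside Gm49368 in place of its 5024 exonic bases, an alternative added with the values in view, its level was 109 ± 35.7 per kilobase, the second of the 8. It then exceeded Itgb7 in 4 of 6 libraries. Itgax, next to it on the chromosome, was lower than Itgam with either length.

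**Figure D3:**
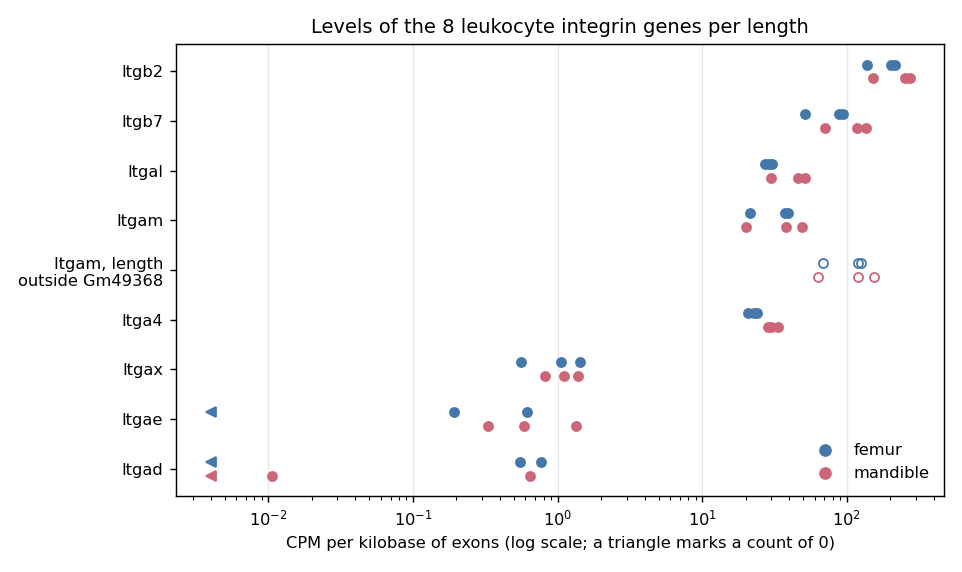
Level of each gene as CPM per kilobase of exons (horizontal log axis) in the 3 femur and 3 mandible libraries, ordered by mean. Open circles give Itgam divided by its 1574 bases outside Gm49368, and triangles mark a count of 0. Itgb2 lies above all others with the deposited lengths, and Itgax, Itgae and Itgad lie below 2 CPM per kilobase.

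The RNA of the 4 β2 α chains was described by each chain's share of their sum per length. This measure within a library needs no scaling between libraries. It is a share of RNA in a bulk sample and does not show which α protein pairs with β2 in a cell. Itgal took 42.0, 54.4 and 43.1% in femur S13, S15 and S18 and 50.7, 54.3 and 58.4% in mandible S16, S19 and S23. Itgam took 54.8, 42.4 and 56.1% in the femur and 47.9, 44.4 and 38.7% in the mandible. The mean share of Itgal was 46.5 ± 6.88% and 54.5 ± 3.84% (SD, n = 3) and that of Itgam 51.1 ± 7.58% and 43.7 ± 4.63%, and femur S15 lay within the mandible range for both. The differences of 7.98 and -7.43 percentage points did not hold up against the spread (exact two-sided permutation tests, p = 0.3 each, adjusted p = 0.6 over 4 chains). Without S15 they were 11.9 and -11.8 points (exact two-sided permutation tests, p = 0.1 each, the smallest p that 2 against 3 libraries allow), and without S18 that of Itgam was -4.91 points. Itgax took 0.801 to 2.099% and Itgad at most 1.26% in any library. With the length of Itgam outside Gm49368, Itgam took 66.9 to 80.3% and Itgal 19.1 to 31.6%.

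**Figure D4:**
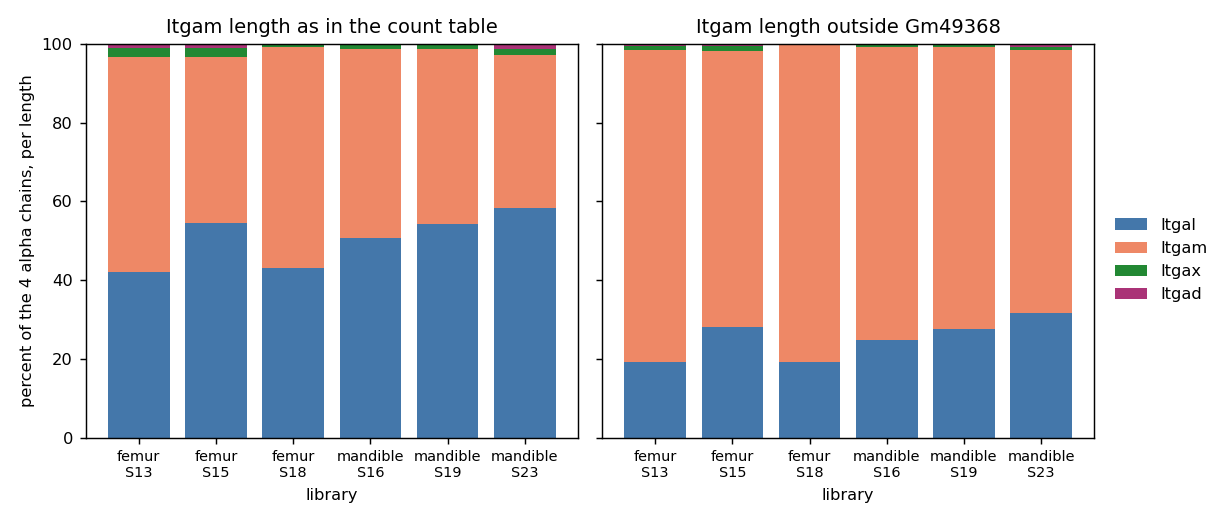
Percent of the 4 β2 α chains, per length, taken by Itgal, Itgam, Itgax and Itgad in each library (stacked bars from 0 to 100%). With the table's length of Itgam (left) Itgal and Itgam are near each other, and with its length outside Gm49368 (right) Itgam takes 66.9 to 80.3%.

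The sum of the 4 α chains per length was 0.313 to 0.401 of the level of Itgb2 in the 6 libraries, and 0.618 to 0.821 with the shorter length of Itgam. The ratio of Itgal to Itgb2 was 0.134, 0.198 and 0.149 in the femur and 0.203, 0.170 and 0.199 in the mandible, and that of Itgam to Itgb2 was 0.175, 0.155 and 0.194 against 0.192, 0.139 and 0.132. On the log2 scale the groups differed by 0.27 for Itgal and -0.19 for Itgam (exact two-sided permutation tests, p = 0.2 and 0.3, adjusted p = 1 over 8 ratios). For the partners of the α4 chain, Itga4 was 0.341 to 0.677 of the level of Itgb1 and 0.246 to 0.405 of that of Itgb7 per length. These ratios differed between the groups by -0.073 and -0.022 on the log2 scale (exact two-sided permutation tests, p = 0.8 and 0.7, adjusted p = 1 over 8 ratios). Itgb1 itself was 204 CPM in femur and 285 CPM in mandible libraries on average, with a log2 fold change of 0.48 (adjusted p = 0.51, edgeR).

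Among the 18113 other tested genes, the 5 whose log2 CPM followed Itgb2 most closely over the 6 libraries were Letm1, Pdia5, Crnkl1, Cd34 and Psmd2, with Pearson r from 0.981 to 0.995. Letm1 is an ion exchanger of the inner mitochondrial membrane, and Cd34 a glycoprotein of blood progenitors and endothelium. Like Itgb2, these genes were lower in S15 and S23 than in the other 4 libraries, and none was called. Of the members, Itgam (r = 0.905) and Itgal (r = 0.794) were closest to Itgb2. The genes most like Itgb7 were Hlcs, Krt80, Soat1, Nrp1 and Fzd4, with r from 0.985 to 0.993, all lowest in S13 and highest in S16. Itgal (r = 0.780) and Itga4 (r = 0.771) followed Itgb7 more than Itgam did (r = 0.350). These are descriptions over 6 libraries, whose values share depth and cell composition.

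Of 19 listed genes of ligands of these integrins 15 were tested, 1 was upregulated and 2 were downregulated in the mandible (20% called, against 5.18% of all genes), and the median log2 fold change was 0.12. Spp1, which encodes the matrix protein osteopontin, a ligand of α4β1, was 58.5, 30.4 and 48.0 CPM in femur and 151, 271 and 311 CPM in mandible libraries. It rose by 2.42 on the log2 scale (SE 0.36, edgeR adjusted p = 0.0024). Vcam1, the ligand of α4β1, was 91.2, 25.4 and 77.4 CPM in femur and 6.26, 21.4 and 17.1 CPM in mandible libraries. It fell by 2.12 on the log2 scale (SE 0.52, adjusted p = 0.040, edgeR), but it was not called under 7 of 14 alternatives, which include leaving out S13, S18, S16, S19 or S23 (adjusted p up to 0.18, edgeR). Gp1ba, a platelet glycoprotein that binds Mac-1, fell from 17.3, 20.7 and 27.6 CPM to 0.951, 0.665 and 2.12 CPM, by 4.14 on the log2 scale (SE 0.55, adjusted p = 0.0012, edgeR). The most abundant ligand genes, Fn1 (fibronectin) and C3 (the source of iC3b), showed log2 differences of 1.00 and 0.46 (edgeR, adjusted p = 0.30 and 0.69). Icam1 was 29.0 to 33.9 CPM in femur and 26.5 to 38.5 CPM in mandible libraries, and it is named outside the rule for named genes, as the common ligand of LFA-1 and Mac-1. The sum of 10 megakaryocyte markers was 600.4 to 960.4 CPM in femur and 80.28 to 111.6 CPM in mandible libraries, and that of 11 macrophage markers, Vcam1 among them, 93.34 to 223.8 and 97.63 to 110.5 CPM. The part of these cells in the differences of Gp1ba and Vcam1, and that of mesenchymal cells in the difference of Spp1, was not tested.

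The list of genes that control the activation of leukocyte integrins from inside the cell holds activators and inhibitors together. Its median thus does not describe a direction of activation. All 21 listed members were measured, and none was called, where 5.18% of all genes were. The median log2 fold change was 0.059, and 5 members had an unadjusted p under 0.05 (edgeR), which 16.4% of all genes had. DESeq2 and limma-voom called 0 and 0 of them. Flna (filamin A), Tln1 (talin, which binds the β tail) and Rap1b (a small GTPase that recruits talin) were the most abundant, with log2 fold changes of 0.17, 0.37 and -0.67 (adjusted p from 0.28 to 0.89, edgeR). Tln1 was 1086, 1172 and 1198 CPM in femur and 1990, 1414 and 1056 CPM in mandible libraries, so that S23 lay below every femur library. Fermt3, which encodes kindlin-3, the co-activator with talin, is named outside the rule. It was 346, 376 and 404 CPM in femur and 236, 293 and 194 CPM in mandible libraries, and did not pass the test (log2 fold change -0.64, adjusted p = 0.26, edgeR). Its groups did not overlap, as in 11.5% of all genes with the mandible lower.

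Of 27 genes of signaling from engaged integrins, 1 was called (3.7%, below the 5.18% of all genes). Parva, the actopaxin of the kinase complex at adhesion sites, rose from 1.11, 2.67 and 0.265 CPM to 7.005, 17.99 and 55.25 CPM (log2 fold change 4.30, SE 0.90, adjusted p = 0.017, edgeR) in the libraries where the sum of mesenchymal markers was 8851 (S16), 11860 (S19) and 15380 CPM (S23). It was not called under 5 of 14 alternatives (adjusted p up to 0.12). The part of mesenchymal cells in the difference of Parva was not tested. The abundant members Plcg2, Syk and Lyn, a phospholipase and kinases downstream of β2 integrins, showed log2 differences of 0.30, 0.15 and 0.21, and the median of the list was 0.099. The list of rolling and transmigration genes had 18 tested members, with 1 called (5.56%, near the 5.18% of all genes), lower in the mandible, and a median of -0.12. This was Esam, an adhesion molecule of endothelium and platelets, at 158, 220 and 201 counts in femur and 4, 5 and 0 counts in mandible libraries (log2 fold change -5.90, adjusted p = 0.0046, edgeR; not called by limma-voom, adjusted p = 0.055). Ccr2, Spn and Cd44, the abundant members, differed by 0.017, 0.37 and 0.20 on the log2 scale and were not called.

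Of the 18 integrin chains outside the 8, 17 were tested and 5 were called, 29.4% against the background of 5.18%. By edgeR, the upregulated chains were Itga11, a collagen receptor of mesenchymal cells (log2 fold change 5.21, adjusted p = 0.00039), Itgb5 (1.88, adjusted p = 0.0037) and Itgav (1.02, adjusted p = 0.042, called under 5 of 14 alternatives). The downregulated chains were Itga2b (-2.61, adjusted p = 0.00048, edgeR) and its partner Itgb3 (-1.67, adjusted p = 0.0051, edgeR). Itgb3 was not called without S19 (adjusted p = 0.056, edgeR). The β chain Itgb3 also pairs with Itgav, and the paper reports it as enhanced in femur-derived monocytes. Beside these chains, the megakaryocyte markers summed to 600.4 to 960.4 CPM in femur and 80.28 to 111.6 CPM in mandible libraries. These sums include Itga2b itself, at 188.5 to 254 CPM in femur and 28.77 to 49.89 CPM in mandible libraries. The mesenchymal and osteoblast markers summed to 346.8 to 440.6 and 8851 to 15380 CPM. The part of those cells was not tested. The difference between 5 of 17 other chains and 0 of 8 members was not tested.

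**Figure D5:**
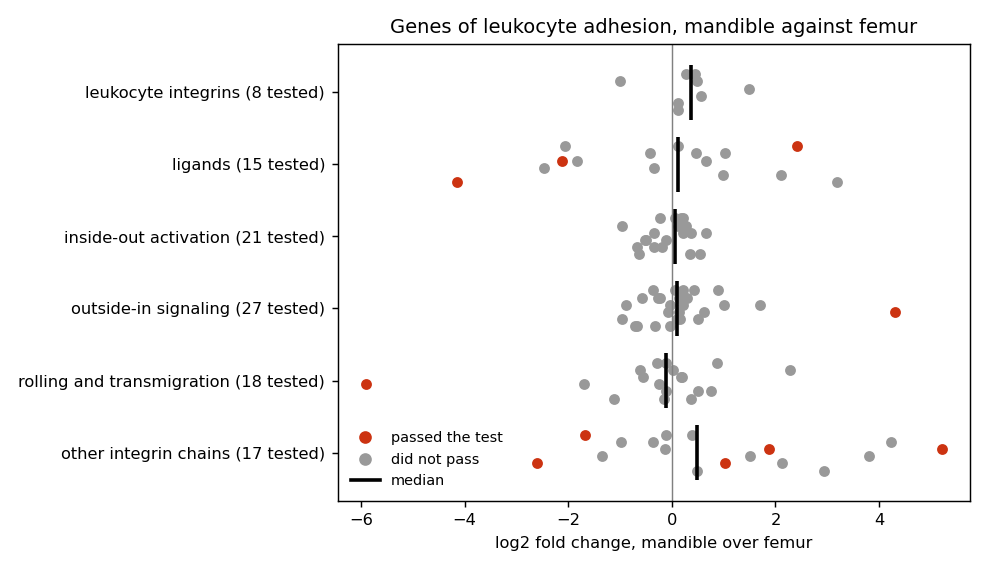
Log2 fold change, mandible over femur (horizontal axis), of each tested gene in the 6 lists of leukocyte adhesion, with the median of each list as a black line. Red points passed the test. The 8 leukocyte integrins hold no red point, and the 17 other integrin chains hold 5.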

How the data were processed

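RNA of 6 monocyte libraries, 3 per skeletal site, was analysed from the deposited raw counts of reads per gene. Per the labels and the study's methods, the authors trimmed paired reads of 50 bases with Trimmomatic, mapped them with HISAT2 2.1.0 and counted them with featureCounts, without normalization. The strand setting and the treatment of reads that fit several genes are not given in the sources used here. The methods name GRCm38, but the listed interval of none of the 8 genes (0) lay inside the gene in GENCODE M21, and positions here are those of M21, matched by Ensembl identifier, while the deposited gene lengths equalled its exon lengths.

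Groups were taken from the sample titles. Genes were kept by filterByExpr (minimum count 10, minimum total count 15), scaled by TMM, and tested in R 4.3.3 with edgeR 4.0.16 (quasi-likelihood test) without covariates, with Benjamini-Hochberg adjustment over all genes. Log2 CPM for correlations used a prior count of 2. Intervals are the log2 fold change ± its standard error times the moderated t quantile. Ratios and shares were tested by exact permutation, and in ratios Itgad and Itgae had a floor of 3 counts. Alternatives were DESeq2 1.42.0, limma-voom (limma 3.58.1), other scalings and filters, a length correction by loess (span 0.4), and each library left out. The tests were tried on simulated data. The members and lists were chosen with earlier results of these data known. Named genes are the members, Itgb1, Ptprc, the 5 genes most like Itgb2 and Itgb7, and in each list up to 3 members of highest mean CPM and up to 3 called in each direction. Lists of pan-leukocyte, nonclassical monocyte, B cell, mast cell, erythroid and endothelial markers were also summed.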

Additional observations from a re-analysis of the deposited data

How the results depend on the processing

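No member was called under any of the 14 alternatives or without the fold change threshold, and leaving out 1 library called none. The directions of Itgal, Itgad, Itgb2, Itgb7 and Itgae were kept under all 14. With the length trend removed, the log2 fold changes of Itgam, Itgax and Itga4 were -0.148, -0.061 and -0.243, and with scaling to pan-leukocyte genes that of Itgax was -0.015. Leaving out 1 library gave -0.181 (without S16) to 0.343 (without S23) for Itgam and -0.161 (without S18) to 0.462 (without S13) for Itgax, and Itgam was also below 0 without S15 (-0.167) and Itgax without S16 (-0.065). The cause was not tested. The 5 other adhesion lists held 10 called genes, 17 when all genes with any count were tested, and 6 (without S19) to 13 (without S15) with 1 library left out. The calls over all genes moved in these settings too. They were 702 higher and 236 lower of 18114 genes (5.18% called) in the main fit. With any count they were 1019 and 571 of 42225 genes, a smaller share, while the calls in the adhesion lists rose. Without S19 they were 376 and 58 of 19979 genes, and without S15 957 and 608 of 18742 genes. In the order of levels, 4 of the 8 genes kept their place without division by length and 5 with the length of Itgam outside Gm49368, an alternative added with the values in view. The differences in shares kept their sign. With 1 library left out, the log2 difference ran from -0.523 to 0.209 for Itgax to Itgb2, -0.294 to 0.2 for Itga4 to Itgb1, -0.255 to 0.192 for Itga4 to Itgb7 and -0.204 to 0.133 for Itgb2 to Ptprc, which was 0.186 against the pan-leukocyte list. No paired analysis was possible because the sources used here do not say which libraries of the 2 sites came from the same animals. With 3 libraries per site, the 95% interval of 7 of the 8 genes held a 2-fold rise, so such a rise was not excluded for them; the exception was Itgam (up to 1.87-fold). Among the other lists, sums of CPM in femur and mandible were 24.14 to 34.02 and 25.57 to 43.53 for B cells, 745.2 to 5167 and 487.2 to 849.1 for mast cells, basophils and eosinophils, 293.1 to 2049 and 132.0 to 227.7 for erythroid cells, 69.94 to 93.57 and 49.36 to 84.26 for endothelium, 710.2 to 1142 and 927.6 to 1576 for nonclassical monocytes, and 4564 to 6149 and 4035 to 6488 for pan-leukocyte genes.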

Other observations

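The counts of Itgad were high or nearly absent across both sites. In the count table, 13 genes had at least 50 counts in 3 libraries and at most 1 count in the other 3. Of these, 11 were split by site, 10 of them high in the mandible and 1 high in the femur, and 2, Itgad among them, were not. The cutoffs lie next to the counts of Itgad itself, 51 in S23 and 1 in S19. Its own fit to the pattern thus follows from them, and no other gene had its high counts in S13, S15 and S23. The cause was not tested.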
